A study of Mus musculus with 3 samples.

Results

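The 39 interferon-induced genes described here were chosen by symbol from the 55450 features counted in single cells of mouse pancreas, and all 39 symbols were found. By textbook knowledge 24 of them are mainly induced by type I interferon (called type I members below), 11 mainly by interferon gamma (gamma members) and 4 by both. Single-cell RNA libraries were made with the 10x Chromium 3-prime kit, in which each captured molecule is counted once through a unique molecular identifier (UMI). The study asked, per its title and design text, how exercise affects the pancreas of db/db mice, a strain with a mutant leptin receptor that develops obesity and diabetes. There were 3 libraries, 1 for each treatment label.

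The library labelled none and the library labelled diabetic carry titles that read seden, and the library labelled diabetic-Exercise (the exercise library below) carries a title that reads exercise. The design text names male db/db mice put on a treadmill at 6 weeks of age. The genotype, strain and age behind the library labelled none, and the number of animals in each library, could not be read from the labels or design text. Strain background and diabetes therefore cannot be told apart in any ratio over that library. With 1 library per group nothing measures the spread between animals, so no difference below was tested, and each interval covers counting error only.

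Interferons are secreted proteins that switch on antiviral and immune genes in the cells that receive them. Type I interferons act through a complex with STAT2 and IRF9 that binds the interferon-stimulated response element (ISRE), whereas interferon gamma acts through gamma-activated sites (GAS) and through IRF1, which also binds ISRE-like sequences. Endothelial cells and macrophages both respond to these proteins, and in endothelium interferon gamma is known for inducing guanylate binding proteins and molecules that regulate T cells.

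RefSeq promoter windows on GRCm38.p6, from 250 bases before to 50 after each start, were matched by symbol for 30 of the 39 members. Gbp4, Usp18, Ifi27, Ifi27l2a, Iigp1, Rtp4, Parp14, Zbp1 and Ly6e had no entry. The ISRE core (GAAA, any 2 bases, then GAAA), searched on both strands, was in a window of 19 of the 30 members (63.3%) and of 1079 of all 27025 genes in the same table (3.99%). The GAS core TTCNNNGAA, which reads alike on both strands, was in a window of 10 of 30 members (33.3%) and of 9.55% of all genes. Among type I members 11 of 19 held the ISRE core and 5 of 19 the GAS core. Among gamma members 6 of 9 held the ISRE core and 4 of 9 the GAS core. The following 4 show the kinds of window found, printed for the 250 bases before the start, with the motif letters in capitals. Isg15 held 3 overlapping ISRE cores, Gbp2 held 1 on the other strand, Irf1 held a GAS core alone, and Igtp held a GAS core followed by an ISRE core. A match is a description of letters and does not show binding.
Isg15, chr4:156200819-156201068, reverse strand: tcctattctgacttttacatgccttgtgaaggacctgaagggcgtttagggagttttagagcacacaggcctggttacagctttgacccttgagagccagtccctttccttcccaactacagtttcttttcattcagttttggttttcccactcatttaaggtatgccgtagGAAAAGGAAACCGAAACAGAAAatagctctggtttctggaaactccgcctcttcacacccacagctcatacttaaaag
Gbp2, chr3:142620413-142620662, forward strand: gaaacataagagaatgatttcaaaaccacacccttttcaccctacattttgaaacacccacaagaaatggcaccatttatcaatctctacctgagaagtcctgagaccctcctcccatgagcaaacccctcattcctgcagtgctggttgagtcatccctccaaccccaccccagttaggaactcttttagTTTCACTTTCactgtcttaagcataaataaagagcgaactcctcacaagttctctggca
Irf1, chr11:53769764-53770013, forward strand: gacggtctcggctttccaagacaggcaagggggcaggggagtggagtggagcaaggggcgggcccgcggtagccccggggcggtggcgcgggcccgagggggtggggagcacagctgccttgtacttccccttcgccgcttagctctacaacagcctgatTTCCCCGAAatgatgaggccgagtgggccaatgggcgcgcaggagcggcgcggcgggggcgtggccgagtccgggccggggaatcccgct
Igtp, chr11:58199306-58199555, forward strand: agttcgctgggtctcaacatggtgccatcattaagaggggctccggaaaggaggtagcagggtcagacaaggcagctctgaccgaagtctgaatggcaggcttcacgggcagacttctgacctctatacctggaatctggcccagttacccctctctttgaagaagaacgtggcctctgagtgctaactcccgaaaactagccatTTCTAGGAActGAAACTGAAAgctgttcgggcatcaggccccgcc

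Libraries held 9958, 12743 and 18433 barcodes (none, diabetic and exercise, the order used throughout), with a median of 3951.5, 4640.0 and 1887 UMIs per barcode. After filtering, 8711, 11020 and 15069 cells were kept, with median mitochondrial shares of 0.708%, 2.20% and 7.0%. In all, 136 barcode sequences occurred in 2 libraries. Cell classes were named from fixed marker lists and are called X-like. Endothelial-like cells numbered 121, 550 and 495, and macrophage-like cells 342, 236 and 224. All classes held much acinar RNA: acinar marker genes made up 48.0%, 33.9% and 42.9% of UMIs in endothelial-like cells and 40.2%, 29.6% and 26.8% in macrophage-like cells. Endothelial-like cells came from a capillary cluster led by Fabp4, Flt1 and Plvap (115, 508 and 231 cells) and a cluster led by Glycam1, Ccl21a and Vwf (6, 42 and 264 cells). Their median genes per cell were 901, 1018 and 375. The part of cluster mix, depth and acinar RNA in the results was not tested beyond the values given beside them.

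Levels are counts-per-million (CPM) of the summed UMIs of a class, scaled with TMM factors. A gene counted as measured in a comparison when its 2 libraries together held at least 20 UMIs. In endothelial-like cells the gamma members were higher in the diabetic library than in the library labelled none, and lower again in the exercise library. Of the 39 members 36 were measured in that pair (all but Oas1a, Ifi27l2a and Zbp1). All 11 gamma members were measured, all 11 had a ratio above 1 in the diabetic library over none, and 10 were at least 1.5-fold higher. Some of them, Gbp2, Gbp4, Gbp5 and Cd274 included, reached the minimum of 20 UMIs only through the diabetic library. The gamma median log2 ratio was 1.55, beside 0.19 over all 7329 genes measured, of which 27.8% were at least 1.5-fold higher. Summed UMIs of the gamma members gave a ratio of 2.73 (95% counting interval 2.40 to 3.11). Type I members did not share this: 22 were measured, 13 above and 9 below 1, where 63.6% of all genes were above 1. At least 1.5-fold higher were 5 type I members, beside 27.8% of all genes, and 4 were at least 1.5-fold lower, beside 9.92%. The type I median was 0.04.

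The guanylate binding proteins are GTPases that gather on the membranes of intracellular pathogens. Gbp4 (9, 369 and 182 UMIs) measured 22.9, 189 and 173 CPM. Its ratio was 8.25 (4.30 to 18.2) in the diabetic library over none and 0.914 (0.761 to 1.10) in the exercise over the diabetic library. Gbp2 (6, 199 and 37 UMIs) stood at 15.3, 102 and 35.2 CPM, with ratios of 6.68 (3.01 to 18.4) and 0.345 (0.236 to 0.492). Thus both were low in the library labelled none, and only Gbp2 of the pair was low again in the exercise library. Gbp5, at 10.2, 40.01 and 29.5 CPM, had 4, 78 and 31 UMIs and ratios of 3.93 (1.47 to 14.8) and 0.737 (0.470 to 1.13). Gbp3, at 43.3, 128 and 49.5 CPM, had ratios of 2.95 (1.80 to 5.14) and 0.387 (0.281 to 0.524). Part of the last 400 bases of these transcripts is shared with relatives: 13.8% of 60-base words of Gbp4 also occur in other genes, Gbp9, Gbp6 and Gbp11 among them. The counts of single family members are uncertain to that degree. Sharing was wider for Oas1a (37.0%, with Oas1g), Trim30a (23.6%, with Trim30d), Ifitm2 (20.2%, with Gm-numbered genes such as Gm8865) and Ifit3 (16.7%, with Ifit3b). Gbp2, Gbp3, Gbp5 and Gbp7 lie together on chromosome 3 (GENCODE M21, GRCm38), and Gbp4 lies on chromosome 5.

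Immunity related GTPases act on the vacuoles in which parasites live. Iigp1, which had the most UMIs of the gamma members (109, 1203 and 244), stood at 278, 617 and 232 CPM. Its ratio was 2.22 (1.83 to 2.73) in the diabetic library over none and 0.376 (0.326 to 0.432) in the exercise over the diabetic library. Igtp stood at 28.0, 138 and 48.5 CPM, with ratios of 4.94 (2.72 to 10.0) and 0.350 (0.254 to 0.474). Both genes had their highest level in the diabetic library. Cd274, which encodes the T cell inhibitory ligand PD-L1, had 3, 114 and 29 UMIs (7.64, 58.5 and 27.6 CPM). Its first ratio was 7.65 (2.55 to 37.6), a wide interval set by the 3 UMIs in the library labelled none, and its second was 0.472 (0.302 to 0.714). The remaining gamma members, Gbp7, Ifi47, Irgm1 and the transcription factor gene Irf1, had first ratios from 1.29 (Irf1) to 2.59 (Ifi47) and second ratios from 0.507 (Gbp7) to 0.721 (Irf1).

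**Figure D1:**
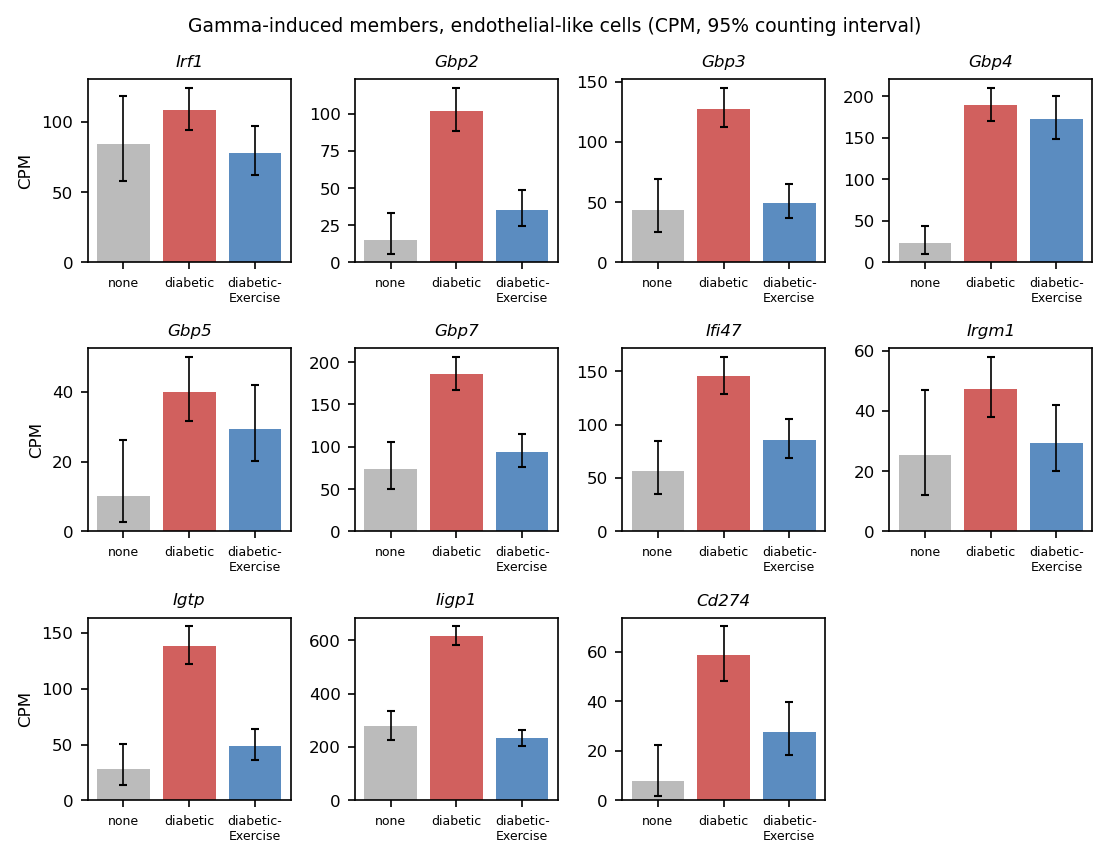
CPM of the 11 gamma members in endothelial-like cells of the 3 libraries, with 95% counting intervals, each panel on its own linear axis from 0. In every panel the diabetic library is highest, and Gbp4 stays near that level in the exercise library (189 and 173 CPM).

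In the exercise over the diabetic library, 34 of 37 measured members had a ratio below 1 in endothelial-like cells. Over all genes measured, 42.9% were above 1. At least 1.5-fold lower were 19 members, beside 17.8% of 8250 genes, and 1 member, Ifi27l2a, was at least 1.5-fold higher, beside 12% of genes. The median was -0.66 over the members and -0.10 over all genes. Gamma members had a median of -0.98 (11 of 11 lower, 8 at least 1.5-fold) and type I members of -0.50 (20 of 23 lower, 10 at least 1.5-fold). The 2 comparisons share the diabetic library, so a high value there raises the one ratio and lowers the other. The exercise library set directly against the library labelled none gave a gamma median of 0.60. Of 11 gamma members 9 were above 1, beside 53.3% of genes, and 6 were at least 1.5-fold higher, beside 23.8%. Type I members had a median of -0.50 in that comparison, with 8 of 18 at least 1.5-fold lower, beside 15.5%.

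Within the capillary cluster alone, chosen as an added comparison after the data were seen, gamma members had medians of 1.45 and -0.71 in the same order, and 10 of 11 were below 1 in the second. Type I members had medians of -0.02 and -0.29 there, with 15 of 22 below 1 in the second. Their summed UMIs, scaled instead over the UMIs outside acinar marker and mitochondrial genes, were not lower in the exercise library, at 3841, 4499 and 4608 CPM. Over the whole class Ly6e alone supplied 46.9%, 55.1% and 62.0% of the type I UMIs. In the other endothelial-like cluster the type I sums were 3690, 3832 and 2608. Endothelial-like cells without a UMI of large-vessel, lymphatic or venule markers (107, 434 and 300 cells) gave type I medians of -0.10 and -0.15. In both of these narrower sets the type I median of the second comparison was nearer 0 than the -0.50 over the whole class. Values over all genes inside these narrower sets are not given here, so their medians and counts have no background beside them. Summed gamma UMIs on the same scale were 1248, 3244 and 2089.7 in the capillary cluster. In the other endothelial-like cluster the sums were 429, 2303 and 1234, the first from 6 cells and 10 UMIs. Both clusters were highest in the diabetic library. The class's own endothelial markers were highest in that library too, at 19640, 28389 and 18454 CPM with 31, 32 and 32 of 32 detected. The adipocyte list followed the same order, at 4721, 8883 and 5009 CPM, from 3 of 10 genes including Fabp4, with Adipoq, Plin1 and Lep at 0. So did erythroid marker genes: 2, 7 and 6 of 10 were detected in endothelial-like cells, summing to 20.4, 1559 and 116 CPM, with Slc4a1 and Epb42 among those at 0 in all 3 libraries. T cell markers summed to 10.2, 13.8 and 4.75 CPM (2, 5 and 2 of 23 detected), with Cd3d, Cd3e and Cd3g at 0. The part of these genes in the gamma difference was not tested.

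Cells with under 50% acinar marker UMIs gave endothelial-like gamma medians of 1.87 and -0.71, for which the median over all genes is not given here. For a comparison at equal total depth, cells under 1000 UMIs (6, 33 and 68 endothelial-like cells) were left out and the others thinned to 1000 UMIs. Acinar marker UMIs, 48.0%, 33.9% and 42.9% of the class before thinning, were thinned with the rest. Depth in other genes was therefore not made equal. Among the thinned cells, 3 or more gamma members were detected in 5.22% of 115 cells, 21.3% of 517 cells and 7.03% of 427 cells. Exact intervals were 1.94% to 11.0%, 17.8% to 25.1% and 4.79% to 9.88%. Acinar-like cells thinned the same way held 3 or more gamma members in none of 6361, 7557 and 7799 cells.

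Type I members in endothelial-like cells divided by gene. Isg15, a ubiquitin-like modifier, stood at 135, 71.3 and 24.7 CPM from 53, 139 and 26 UMIs, with ratios of 0.528 (0.382 to 0.739) and 0.347 (0.219 to 0.530). Irf7, the factor that amplifies type I interferon production, stood at 45.9, 23.1 and 9.51 CPM, with ratios of 0.503 (0.286 to 0.924) and 0.412 (0.185 to 0.829). Both were lowest in the exercise library. Stat2, a subunit of the type I complex, went the other way in the first comparison, at 10.2, 33.9 and 30.4 CPM with a ratio of 3.32 (1.24 to 12.6) resting on 4 UMIs in the library labelled none. Rsad2, an antiviral enzyme singled out after its values were seen, stood at 63.7, 154 and 110.3 CPM, with ratios of 2.42 (1.60 to 3.79) and 0.717 (0.574 to 0.891).

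Further type I members in endothelial-like cells had first-ratio intervals that included 1. Eif2ak2, the RNA-activated kinase PKR (11, 30 and 9 UMIs), stood at 28.0, 15.4 and 8.56 CPM, with ratios of 0.549 (0.267 to 1.21) and 0.556 (0.232 to 1.20). Samd9l, a restriction factor of poxviruses, stood at 58.6, 38.98 and 38.99 CPM, with a first ratio of 0.665 (0.413 to 1.11). Xaf1, a pro-apoptotic factor, stood at 61.2, 44.1 and 41.8 CPM, with a first ratio of 0.721 (0.454 to 1.19). These 3 were highest in the library labelled none. Ifit1, which binds viral RNA, stood at 30.6, 25.6 and 15.2 CPM with a first ratio of 0.839 (0.440 to 1.73). Cmpk2, a nucleotide kinase, stood at 22.9, 23.6 and 20.9 CPM with a second ratio of 0.887 (0.508 to 1.504). Ifi35 stood at 79.0, 68.2 and 60.9 CPM with a second ratio of 0.892 (0.652 to 1.21). Cmpk2 and Ifi35 thus had nearly level values across the 3 libraries. Ifi27l2a, the one member at least 1.5-fold higher in the exercise over the diabetic library, had 5, 11 and 15 UMIs and a ratio of 2.53 (1.09 to 6.09).

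Ly6e, Ifitm3 and Ifitm2, which encode membrane proteins, had the most UMIs of the members in endothelial-like cells, ahead of Iigp1 and then Bst2. Ifitm3, which blocks viral entry, measured 1169.5, 1346 and 753 CPM in endothelial-like cells, with ratios of 1.15 (1.04 to 1.27) and 0.560 (0.516 to 0.606). Ifitm2, its close relative, stood at 629, 642 and 505 CPM, with ratios of 1.02 (0.889 to 1.17) and 0.787 (0.710 to 0.872). Bst2, also named tetherin because it holds budding virus at the cell surface, stood at 250, 242 and 118 CPM, with ratios of 0.970 (0.778 to 1.22) and 0.487 (0.396 to 0.595). Ly6e, a lipid-anchored surface protein, stood at 996, 1362 and 1192 CPM and supplied 46.9%, 55.1% and 62.0% of the summed type I UMIs. The type I sum, 1.16 (1.08 to 1.25) in the diabetic library over none, is therefore largely Ly6e.

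In macrophage-like cells the type I members were lower in the diabetic and exercise libraries than in the library labelled none. Measured in the first pair were 30 of the 39 members, all but Ifit1, Ifit2, Ifit3, Ifit3b, Usp18, Gbp2, Gbp4, Gbp5 and Cd274. In the diabetic library over none, 18 of 19 measured type I members were below 1 and 14 were at least 1.5-fold lower, with a median of -1.14. Over all members 17 of 30 were at least 1.5-fold lower, beside 14% of 7062 genes, and 1 (Irf1) was at least 1.5-fold higher, beside 13.4%. All genes had a median of -0.01, and 49.0% of them were above 1. Scaling by total UMIs moved the median of all genes to 0.35 and left 10 members lower and 3 higher, with a type I median of -0.79. Of the gamma members 7 were measured, 3 above and 4 below 1, with a median of -0.02. In the exercise library over the library labelled none, 16 of 20 type I members were at least 1.5-fold lower, beside 17.5% of genes, with a median of -1.07. Macrophage marker genes, all 25 of them detected, made up 33520, 32839 and 27139 CPM in these cells, and were lowest in the exercise library. The platelet list was lower along with the type I members, at 1791, 603 and 393 CPM from 3, 4 and 2 of 8 genes, with Gp1bb, Treml1 and Gp6 at 0 in all 3 libraries. Plasmacytoid dendritic markers summed to 248, 172 and 242 CPM, with 10, 6 and 6 of 10 detected and Ccr9, Ly6d and Klk1b27 at 0 in the diabetic and exercise libraries. The part of these lists in the result was not tested. Macrophage-like cells with a UMI of a C1q gene, a complement component (296, 187 and 174 cells), gave a type I median of -1.30 in the diabetic library over none, with 18 of 19 members below 1. Values over all genes inside these cells are not given here.

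Ifi27l2a, an interferon-induced protein related to Ifi27, showed the widest gap. It stood at 919, 100.1 and 119.8 CPM in macrophage-like cells, from 1068, 108 and 105 UMIs. The ratio was 0.109 (0.0886 to 0.133) in the diabetic library over none and 1.20 (0.906 to 1.58) in the exercise over the diabetic library. It was detected in 68.4%, 23.7% and 19.2% of these cells. Among those with 1000 or more UMIs, thinned to 1000, it was detected in 34.9%, 7.14% and 9.69%. Acinar-like cells gave 0.456%, 0.0794% and 0.244% after the same thinning. No single macrophage-like cell held more than 7.41% of its UMIs in a library.

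Other type I members had smaller gaps of the same direction. Irf7 measured 47.3, 8.35 and 12.6 CPM, with a first ratio of 0.176 (0.0766 to 0.360). Rtp4, a chaperone of receptor proteins, stood at 38.7, 11.1 and 4.56 CPM with a first ratio of 0.287 (0.138 to 0.553). Bst2 stood at 168, 52.9 and 45.6 CPM with a first ratio of 0.315 (0.230 to 0.425). These 3 genes were highest in the library labelled none. Oasl2, of the oligoadenylate synthetase family, measured 39.6, 14.8 and 11.4 CPM with a first ratio of 0.375 (0.198 to 0.675). Xaf1 measured 29.2, 12.1 and 15.97 CPM with a first ratio of 0.412 (0.200 to 0.801). Isg15, at 32.7, 19.5 and 26.2 CPM, and Irf9, the DNA-binding subunit of the type I complex, at 33.6, 22.3 and 36.5 CPM, had lower values in the diabetic library with intervals that included 1. Ifi27, at 74.0, 56.6 and 37.7 CPM, was lowest in the exercise library, with a second ratio of 0.666 (0.422 to 1.03). Ifi35 stood at 21.5, 20.4 and 13.7 CPM with a first ratio of 0.949 (0.510 to 1.753). Samd9l was the one measured type I member above 1, at 29.2, 38.0 and 33.1 CPM and a ratio of 1.30 (0.805 to 2.11).

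**Figure D2:**
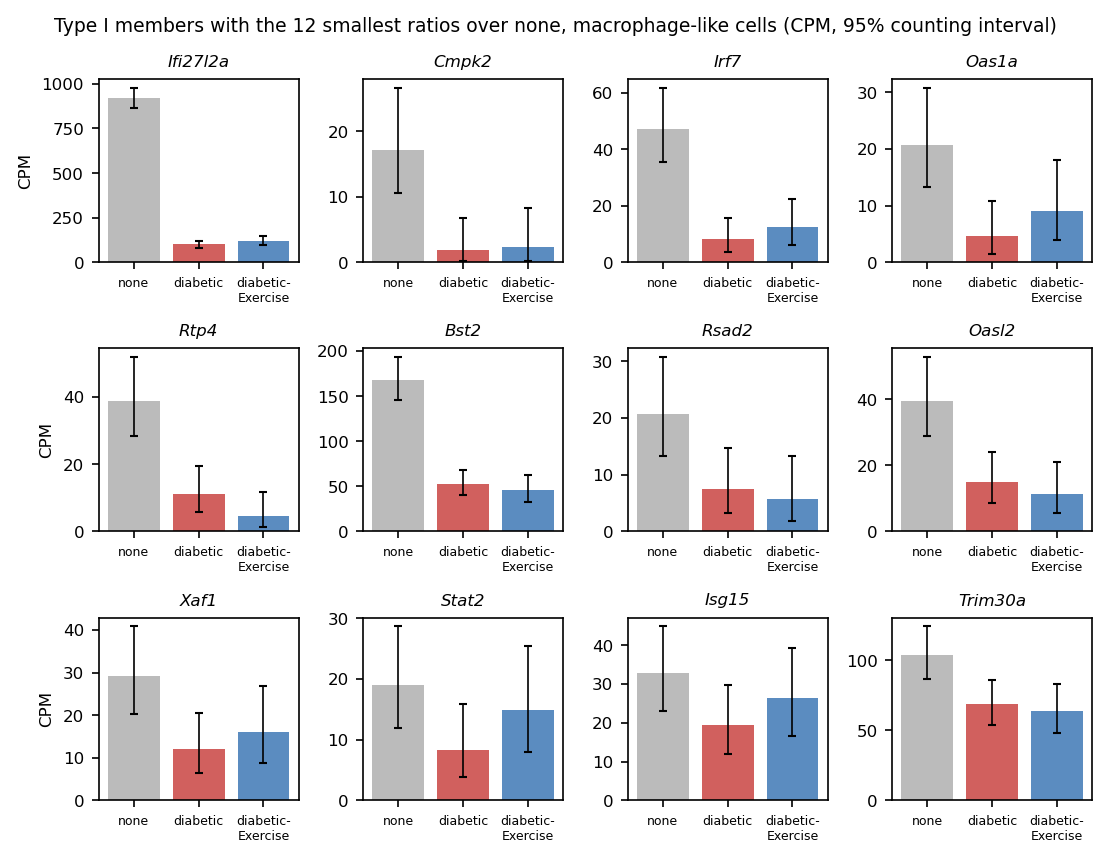
CPM in macrophage-like cells of the 12 measured type I members with the smallest ratios in the diabetic library over none, with 95% counting intervals, each panel on its own linear axis from 0. In every panel the library labelled none is highest, with Ifi27l2a at 919 against 100.1 and 119.8 CPM.

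Irf1, which turns on genes of antigen presentation, was the member with the highest first ratio in macrophage-like cells. It had 118, 178 and 75 UMIs (102, 165 and 85.6 CPM), with ratios of 1.63 (1.28 to 2.07) and 0.518 (0.390 to 0.683). In the exercise over the diabetic library 23 members were measured in these cells, 8 above and 15 below 1. At least 1.5-fold higher were 3, beside 12.8% of 6734 genes, and at least 1.5-fold lower were 8, beside 12.4%. The split was 3 and 4 when scaled by total UMIs. Members had a median of -0.20 and all genes of 0.00, with 49.5% of all genes above 1. Ly6e stood at 736, 528 and 350.3 CPM, with a second ratio of 0.664 (0.576 to 0.764). Ifitm2 stood at 711, 568 and 372 CPM, with a second ratio of 0.655 (0.571 to 0.751). Both were lowest in the exercise library. Ifitm3 stood at 1511.5, 790.1 and 759.9 CPM, with a second ratio of 0.962 (0.868 to 1.07), so that its gap lay between the library labelled none and the other two. Of the gamma members, Ifi47 stood at 26.7, 21.3 and 13.7 CPM with ratios of 0.7998 (0.445 to 1.42) and 0.642 (0.291 to 1.34). Gbp7 stood at 28.4, 28.7 and 33.1 CPM with ratios of 1.01 (0.5998 to 1.71) and 1.15 (0.669 to 1.97). Parp14, an ADP-ribosyltransferase induced by both interferons, stood at 48.2, 38.9 and 35.4 CPM with a first ratio of 0.808 (0.529 to 1.23). None of these 3 had an interval that left out 1.

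In the diabetic library over none, 3 of the members chosen by rule for full values had counting intervals on opposite sides of 1 in the 2 classes. Members outside that rule, Rsad2 among them, were not part of this check. Stat2 was at 3.32 in endothelial-like and 0.441 (0.179 to 0.996) in macrophage-like cells. Ifitm3 was at 1.15 and 0.523 (0.481 to 0.568). Ly6e was at 1.37 (1.23 to 1.52) and 0.717 (0.644 to 0.799). Irf7, Isg15, Bst2 and Xaf1 were below 1 in both classes, but only for Irf7 did both counting intervals leave out 1. Irf1 was above 1 in both classes. Of the 24 type I members the endothelial-like median was 0.04 and the macrophage-like median -1.14 over the members measured in each. The difference between classes was not tested, since each class comes from the same 3 libraries.

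**Figure D3:**
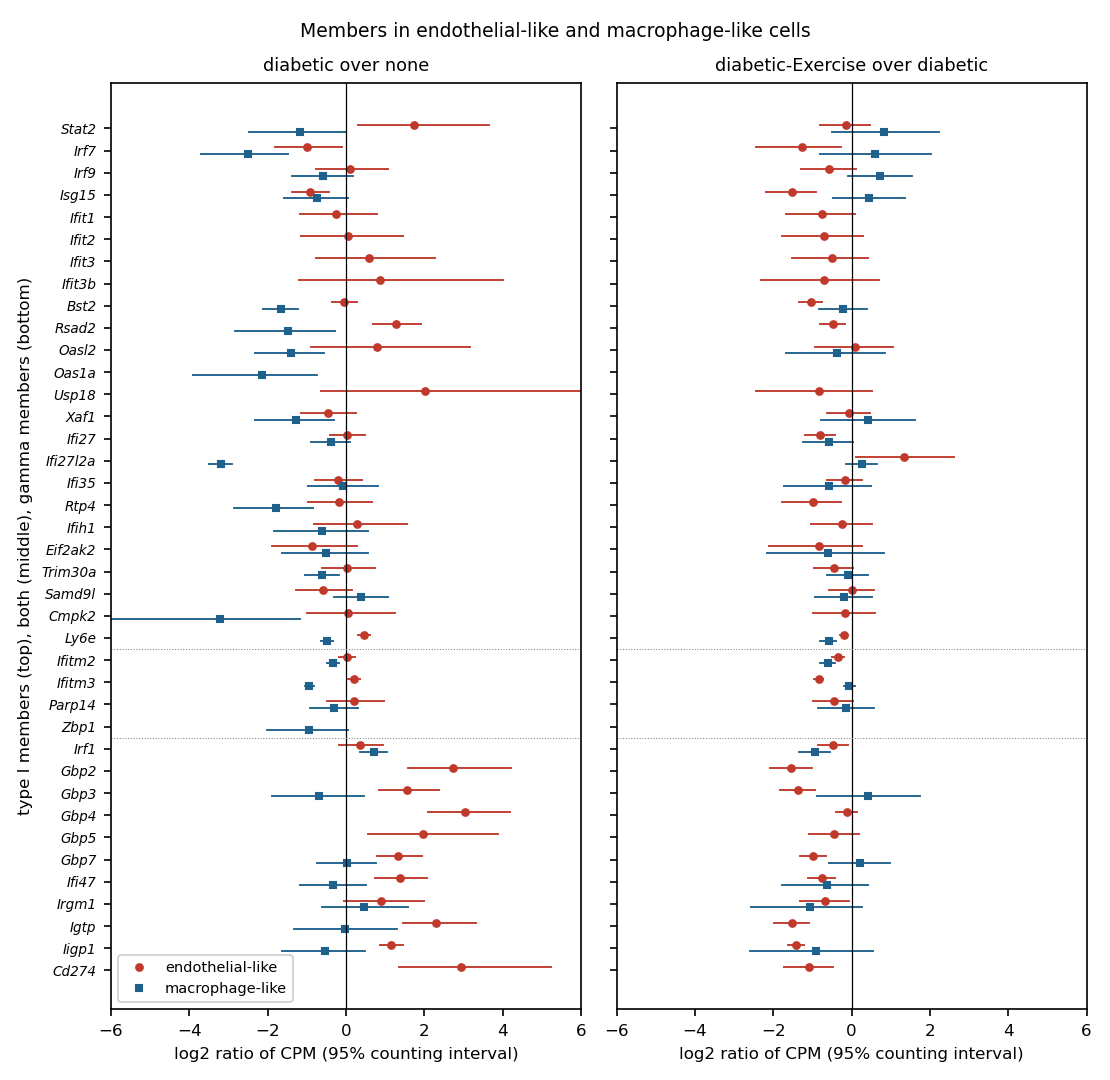
Log2 ratios of CPM with 95% counting intervals for the members measured in endothelial-like cells (circles) and macrophage-like cells (squares), in the diabetic library over none (left) and the exercise over the diabetic library (right). Intervals beyond 6 on the log2 scale are drawn to the edge. Gamma members at the bottom lie to the right of 0 in endothelial-like cells on the left panel, and type I members at the top lie mostly to the left of 0 in macrophage-like cells.

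Across classes, summed gamma UMIs, as CPM over the UMIs outside acinar marker and mitochondrial genes, were highest in endothelial-like cells in each library, at 1160.3, 3165 and 1734. Macrophage-like cells stood at 331, 467 and 296 and fibroblast-like cells at 389, 343 and 225. Ductal-like cells stood at 242, 228 and 156, and acinar-like cells at 12.7, 16.3 and 22.0. T-like cells, with 188, 20 and 34 cells, stood at 342, 705 and 380.1, so their intervals were wide (479 to 1001 in the diabetic library). In the library labelled none the gamma sums of fibroblast-like (342 to 440.0) and macrophage-like cells (293 to 373) overlapped in their intervals. Type I sums were 3825, 4443 and 3776 in endothelial-like cells and 3443, 1615 and 1366 in macrophage-like cells. The sums were close in the library labelled none and apart in the diabetic and exercise libraries. Their leading genes differed in the library labelled none: Ly6e supplied 46.9% in endothelial-like cells and Ifi27l2a 37.8% in macrophage-like cells. Ly6e led both classes in the diabetic (55.1% and 52.2%) and exercise (62.0% and 42.1%) libraries.

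**Figure D4:**
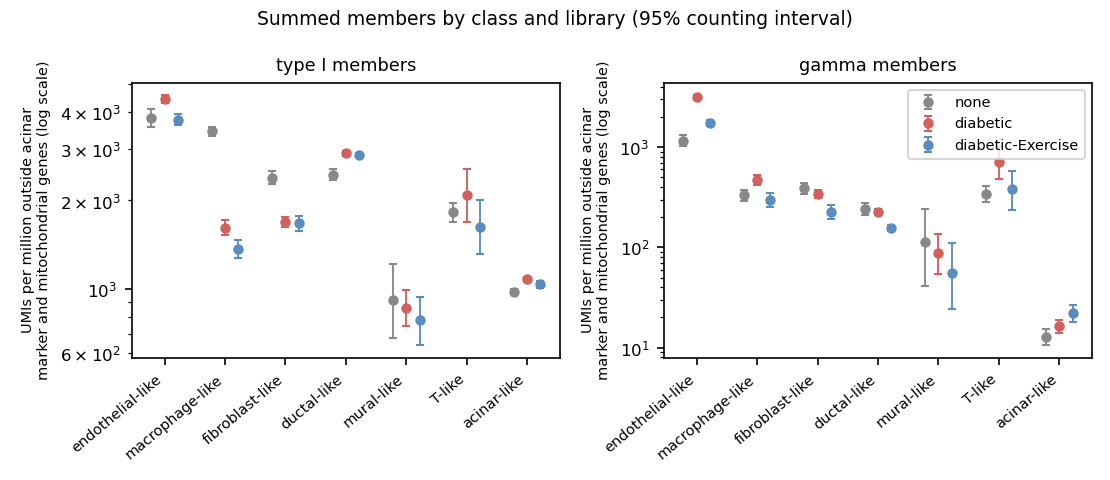
Summed UMIs of the type I members (left) and gamma members (right) as CPM over the UMIs outside acinar marker and mitochondrial genes, by cell class and library, on log axes with 95% counting intervals. Endothelial-like cells are highest for gamma members in all 3 libraries, and macrophage-like cells stand at 3443, 1615 and 1366 for type I members. Ifi27l2a supplied 37.8% of the macrophage-like type I sum in the library labelled none.

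Fibroblast-like cells numbered 296, 527 and 329. In the first comparison 9 of 34 members were at least 1.5-fold lower, beside 11.5% of genes, and 3 higher, beside 17.3%. Scaling by total UMIs gave 4 lower and 7 higher, so these counts have no settled direction. Type I members had 7 of 21 lower and 2 higher, with a median of -0.20. The type I sum gave 0.644 (0.603 to 0.688), with 33.1% of it from Ifi27l2a in the library labelled none. The gamma sum gave 0.804 (0.688 to 0.943). In the exercise over the diabetic library 14 of 31 members were at least 1.5-fold lower, beside 14.8%, and 2 higher, beside 10.2%. The median was -0.52 against -0.07 over all genes. Isg15, singled out after its values were seen, stood at 25.2, 44.8 and 4.83 CPM from 24, 95 and 6 UMIs there, 1 cell holding 22.1% of the 95. Its ratio in the exercise over the diabetic library was 0.108 (0.0386 to 0.244), and 0.0923 without the top cell of each library. Ifi27l2a, chosen likewise, stood at 535, 122 and 246 CPM. One cell held 106 of its 305 UMIs in the exercise library, and without the top cells the ratio of 2.01 (1.70 to 2.38) became 1.39. Ifi27l2a was below 1 in the diabetic library over none in ductal-like (0.210, interval 0.0865 to 0.512) and acinar-like cells (0.254, 0.178 to 0.356) as well.

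Ductal-like cells had 11 of 29 members at least 1.5-fold higher in the diabetic library over none, beside 16% of genes, and 1 lower, beside 9.34%. The median was 0.25 against 0.06 over all genes. Of 6 gamma members measured, 4 were at least 1.5-fold higher, 2 of them with intervals that left out 1, and the median was 1.05. Their summed UMIs, 71.7% from Irf1 in the diabetic library, gave 0.903 (0.780 to 1.05). Type I members had 7 of 20 at least 1.5-fold higher and a median of 0.23. In the exercise over the diabetic library 4 of 31 members were at least 1.5-fold lower, beside 6.44%, and 3 higher, beside 9.42%. The gamma members had 3 of 6 at least 1.5-fold lower, 1 with an interval that left out 1, and a median of -0.61. Acinar-like cells had 7 of 21 members at least 1.5-fold lower in the first comparison, beside 12.3%, and 4 higher, beside 11.9%. Type I members had 7 of 14 lower, 4 of them with intervals that left out 1, and a median of -0.52. Gamma members had 0 of 4 lower and 2 higher. The type I sum went the other way, at 1.14 (1.11 to 1.17), with 86.4% of it from Ly6e in the diabetic library. In the second comparison, 6 of 21 members were higher, beside 11.2%, and 1 lower, beside 9.8%. Most members there stood under 4 CPM.

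Of 80 other interferon pathway genes listed, the interferons themselves were nearly absent. Ifng had 10, 4 and 2 UMIs in the kept cells, all in T-like cells, and Ifnb1 had 1, 0 and 6, while the other listed interferons had none. Of 51 other induced genes, 29 were measured in endothelial-like cells in the diabetic library over none, of which 13 were at least 1.5-fold higher, beside 27.8% of all genes, and 0 lower, beside 9.92%. In the exercise over the diabetic library 13 of 31 were at least 1.5-fold lower, beside 17.8%, and 1 higher, beside 12%. In macrophage-like cells 17 of 32 were at least 1.5-fold lower in the diabetic library over none, beside 14%, and 0 higher, beside 13.4%. Receptors and kinases in endothelial-like cells counted 3 higher and 1 lower of 10 in the first comparison, close to the shares over all genes (27.8% and 9.92%).

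Gbp9, a further guanylate binding protein, measured 10.2, 42.6 and 40.9 CPM in endothelial-like cells, with a first ratio of 4.18 (1.57 to 15.7). Gbp4 shares 60-base words of its last 400 bases with Gbp9, so the counts of these genes may not be fully separate. Slfn5, a Schlafen family protein with the most UMIs of the list there, stood at 257, 362 and 207 CPM. Psmb10, a subunit of the immunoproteasome, stood at 214, 205 and 217 CPM there, and Tapbp, which helps load peptides on MHC class I, at 145, 213 and 159 CPM with a first ratio of 1.47 (1.11 to 1.97). Ifngr2, a chain of the interferon gamma receptor, was 0.329 (0.153 to 0.701) in the exercise library over the library labelled none. Socs3, an inhibitor of cytokine signalling, measured 160.0, 321 and 193 CPM in macrophage-like cells, with a first ratio of 2.01 (1.67 to 2.41). Psmb10 stood at 179, 143 and 153 CPM there, and Psme1, a proteasome activator, at 192, 163 and 95.8 CPM. Ddx60, a helicase, stood at 28.4, 6.49 and 19.4 CPM in macrophage-like cells, with ratios of 0.229 (0.0854 to 0.526) and 2.99 (1.18 to 8.52). Tor3a was 0.300 (0.111 to 0.693) in the exercise library over the library labelled none.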

How the data were processed

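The authors deposited raw UMI counts per gene and barcode for 3 libraries, whole numbers with no normalization, made with Cell Ranger (6.1.2 per the matrix headers, 7.1.0 per the submitters' processing notes). The reference build behind the counts was not given in the sources used here. All 55450 feature identifiers match GENCODE M21.

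Kept barcodes had 500 or more UMIs, 200 or more genes and a mitochondrial share of no more than 20%. Scrublet marked 0% as doublets by its own threshold, so the top 5% by score were removed per library. Cells were clustered together with scanpy 1.11.5 (2000 variable genes, 30 components, Leiden resolution 1). Clusters were named from marker lists, and those under 20 cells stayed unnamed, a limit set after the data were seen. Raw counts were summed per class and library, scaled with TMM in edgeR 4.0.16, and compared as ratios with exact conditional Poisson 95% intervals. Log2 ratios carry a prior count of 0.5. No test was run, because each group has 1 library. The ratio and its interval were tested on simulated data.

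The members and all lists were chosen with earlier results of these data known. Full values were given for members with at least 50 UMIs over the 3 libraries that had one of the 6 largest or 6 smallest log2 ratios in endothelial-like or macrophage-like cells, or were among the 5 with most UMIs, and other genes outside this rule are said to be chosen after their values were seen. Of the other pathway genes, values were given for the 3 with most UMIs in each of these classes and for any past 3-fold with 50 UMIs. Some listed genes are not reported here. In total 14 alternatives were planned and 3 added after the data were seen.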

Additional observations from a re-analysis of the deposited data

Results flagged for a closer look

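In the diabetic library over the library labelled none, 3 of the members chosen by rule for full values moved in opposite directions in the 2 main classes. Their counting intervals lay on opposite sides of 1. Other members were not part of this check. The difference between classes was not tested, since each rests on the same pair of libraries. Stat2 had a ratio of 3.32 in endothelial-like cells and 0.441 in macrophage-like cells, on 4 and 66 UMIs in the one and 22 and 9 UMIs in the other. Ifitm3 had ratios of 1.15 and 0.523. Ly6e had ratios of 1.37 and 0.717.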

How the results depend on the processing

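No paired analysis was possible because each group has 1 library. Alternatives were run for 61 member ratios chosen by the rule above, in endothelial-like and macrophage-like cells. The comparisons were diabetic over none and exercise over diabetic. None of these ratios past 1.5-fold with a counting interval that left out 1 changed sign. Other member ratios were not run under the full set of alternatives. The gamma median in endothelial-like cells ranged from 1.35 to 2.03 (diabetic over none) and from -1.48 to -0.71 (exercise over diabetic). The type I median in macrophage-like cells (diabetic over none) ranged from -1.30 to -0.64. The type I median in endothelial-like cells (diabetic over none) ranged from -0.15 to 0.32 and so has no settled sign.

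Scaling by total UMIs moved the median of all genes to 0.35 (macrophage-like), 0.47 (endothelial-like) and 0.37 (fibroblast-like) in the diabetic library over none, and to 0.40 in acinar-like cells in the exercise over the diabetic library. Members past 1.5-fold then counted 10 lower in macrophage-like and 4 lower in fibroblast-like cells in the first comparison. In the second they counted 4 lower in macrophage-like cells, also under scaling outside acinar marker and mitochondrial genes, and 10 higher in acinar-like cells.

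With a minimum of 50 UMIs the counts were 9 lower (macrophage-like), 4 lower (fibroblast-like) and 4 lower (acinar-like) in the first comparison. They were 4 lower (macrophage-like), 9 lower (fibroblast-like), 2 lower (ductal-like) and 2 higher (acinar-like) in the second. These limits leave fewer genes measured. For macrophage-like cells in the second comparison, a minimum of 10 UMIs gave 13 lower, a mitochondrial ceiling of 10% gave 3, and clustering resolution 2 gave 3.

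Thinning to 1000 UMIs gave 5 lower (macrophage-like), 4 lower (fibroblast-like), 4 higher (ductal-like) and 1 lower (acinar-like) in the first comparison. It gave 3 lower (macrophage-like), 7 lower (fibroblast-like) and 1 higher (acinar-like) in the second, with fewer members measured throughout. The gamma median in macrophage-like cells was then 1.16, on 1 member. The mean of per-cell CPM gave medians of -1.24 (all members) and -1.48 (gamma) and 31 members lower in endothelial-like cells in the second comparison, where all genes had a median of -0.47, and 3 lower in fibroblast-like cells in the first. The cause was not tested. With each library clustered apart, no macrophage-like cluster was named in the exercise library, so that comparison has no value. The subtraction of acinar RNA was not applied to acinar-like cells. Few cells limit the gamma ratios over the library labelled none, where 121 endothelial-like cells gave 6 of the 11 gamma members 11 UMIs or fewer.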
